A study of Mus with 5 samples.

Results

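RARα and BATF binding at 10 genes of the AP-1 and BATF family (Batf, Batf3, Jun, Junb, Jund, Fos, Fosb, Fosl1, Fosl2 and Maff) was examined in ChIP-seq peak lists from mouse CD8 T cells. A peak was taken for a gene when the deposited annotation of the peak named that gene, and the rule used no measured value. The 10 genes themselves were chosen with earlier results of these data known. Of 27480 peaks in 4 lists, 61 named 1 of the 10 genes. These were 34 of 15812 BATF peaks in control cells, 22 of 9899 BATF peaks in cells with RA, 4 of 1172 RARα peaks in control cells and 1 of 597 RARα peaks in cells with RA.

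RARα is a nuclear receptor for retinoic acid (RA), the active form of vitamin A. AP-1 proteins are basic leucine zipper (bZIP) transcription factors that bind DNA as dimers, typically a JUN protein with a FOS or BATF protein. BATF has no transactivation domain of its own, pairs with JUN proteins, and works with IRF4 on composite DNA elements in activated T cells. JUN and FOS genes are classical early genes induced by T cell receptor signaling, and BATF is needed for the expansion and effector function of CD8 T cells.

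The cells were wild type (WT) mouse CD8 T cells from the spleen. Activation with IL-2 and antibodies to CD3 and CD28 lasted 24 h. A rest of 24 h in 100 U/ml IL-2 followed, and then 1 h in which RA was either left out (control) or added at 50 nM. The sample labels call the cells naive and name IL-7, IL-8, IL-9 or IL-10 in place of IL-2, and they do not say whether the cells behind the IgG sample received RA. Peak lists hold no expression values, so the cell type was not checked against its markers. Each list had been called on 2 pooled ChIP files against the same IgG file, which leaves 1 list per condition. No replicate spread exists, and all differences between lists are therefore described without a test. The pools held 22655611 (RARα control), 22475060 (RARα with RA), 23110180 (BATF control) and 16424269 (BATF with RA) fragments. The BATF pool with RA thus had 71.1% of the depth of its control, and fewer and weaker calls in it cannot be told apart from lower depth by the number of peaks alone.

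BATF peaks were found at all 10 genes in control cells and at 9 genes in cells with RA, with Batf3 as the gene without one. Over all protein-coding genes, 46.2% were named for a BATF control peak and 36.4% for a BATF peak with RA. Jund had the most BATF control peaks (8), followed by Batf, Fos and Fosb (4 each), Jun, Junb and Fosl2 (3 each), Batf3 and Fosl1 (2 each) and Maff (1). The median was 3 peaks per gene, against 1 over all genes that had a peak. With RA, the counts were 4 for Jund and Junb, 3 for Batf and Fosb, 2 for Jun, Fos and Fosl1, and 1 for Fosl2 and Maff. Junb was the gene with more peaks in cells with RA than in control cells, because 1 broad control peak was called there as 2 separate peaks.

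**Figure D1:**
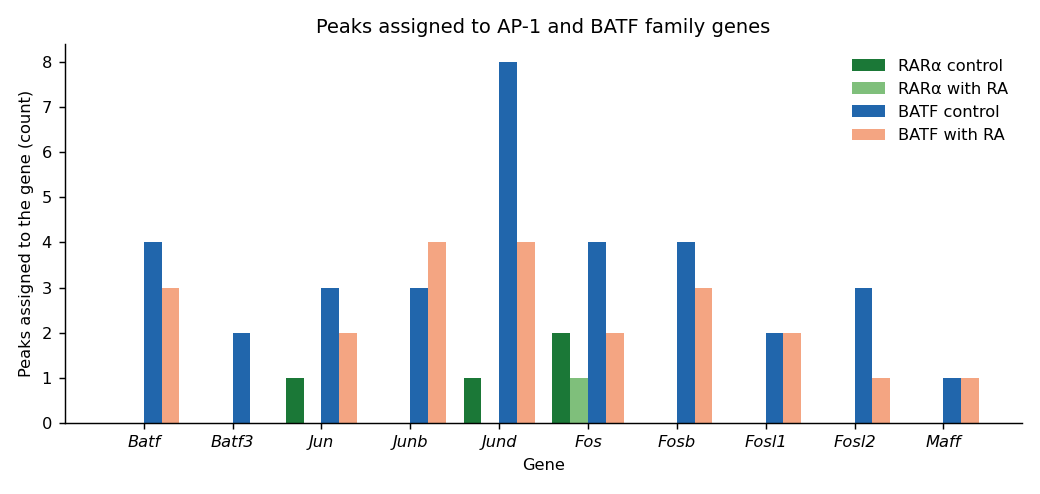
Number of peaks (y axis) assigned to each of the 10 genes (x axis) in the RARα and BATF lists of control cells and cells with RA, with 1 bar per list. Jund has 8 BATF control peaks and 4 with RA, Batf3 has 2 and 0, and RARα bars appear at Jun, Jund and Fos alone.

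The 10 genes had 4 RARα peaks in control cells and 1 with RA. In control cells 3 of the 10 genes (Jun, Jund and Fos) had one, against 6.85% of all protein-coding genes, and with RA 1 of 10 (Fos) had one, against 3.05% of all. The other 7 genes were named for no RARα peak in either list at the cutoff of the peak caller, a p-value of 0.001. This rests on the annotation: Fosb and Fosl1 each had 1 RARα control peak within 100 kb that did not name them.

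Strength was read from the fold enrichment, the fragment pileup at the summit plus 1 over the local IgG level plus 1. On this scale Fosb and Batf carried the strongest BATF control peaks of the 10 genes, with a fold of 19.7 and 18.2. The value of Batf rests on 1 peak 93168 bp away that lay nearer to Jdp2, and its next strongest control peak had a fold of 7.03. Junb (12.8), Jund (9.60), Fos (9.34), Fosl2 (9.33), Maff (8.37), Batf3 (7.90), Jun (7.09) and Fosl1 (6.05) followed. Ranked among the strongest peak of every gene that had one, Fosb and Batf stood at the 95.7 and 95.01 percentiles, whereas Jun (54.5) and Fosl1 (39.9) were close to or below the middle. The median of the 10 values was 9.33, against 6.72 over all genes with a BATF control peak. Each value is the highest of a gene's peaks, of which the 10 genes had a median of 3, against 1 over all such genes. The part of this in the gap was not tested. With RA the median of the 9 remaining genes was 5.67, against 5.96 over all genes with a peak. Over single peaks, the median fold was 6.04 at the 10 genes and 5.40 in the whole list in control cells, and 4.88 and 5.29 with RA.

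Of the 34 BATF control peaks, 15 touched the body of the gene, 23 lay within 10 kb of it and 11 lay farther away, up to 93168 bp. The annotation classed 15 as promoter, 17 as intergenic, 2 as intron and 0 as exon. Promoter peaks thus made up 44.1% (Wilson 95% interval 28.9 to 60.6, counting error only), where 58.7% of all BATF control peaks were of this class. Among the 23 control peaks within 10 kb of the gene the promoter share was 65.2%. All 15 promoter peaks lay within 10 kb, so this limit could only raise the share. The share over all BATF control peaks under the same limit was not computed. Intergenic peaks made up 50.0%, against 18.1% of all. With RA, 11 of 22 peaks were promoter peaks, against 64.6% of all BATF peaks with RA, and the other 11 were intergenic. An intergenic peak in these lists can name many genes: 15 of the 34 control peaks, all intergenic, named more than the family member, 1 of them 23 genes. Each of the 15 promoter peaks named 1 gene. A choice by gene name takes up an intergenic peak through any gene it names, while the shares of all peaks count each peak once. The part of this in the differences between class shares was not tested. The member was the nearest protein-coding gene for 26 of the 34 control peaks.

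**Figure D2:**
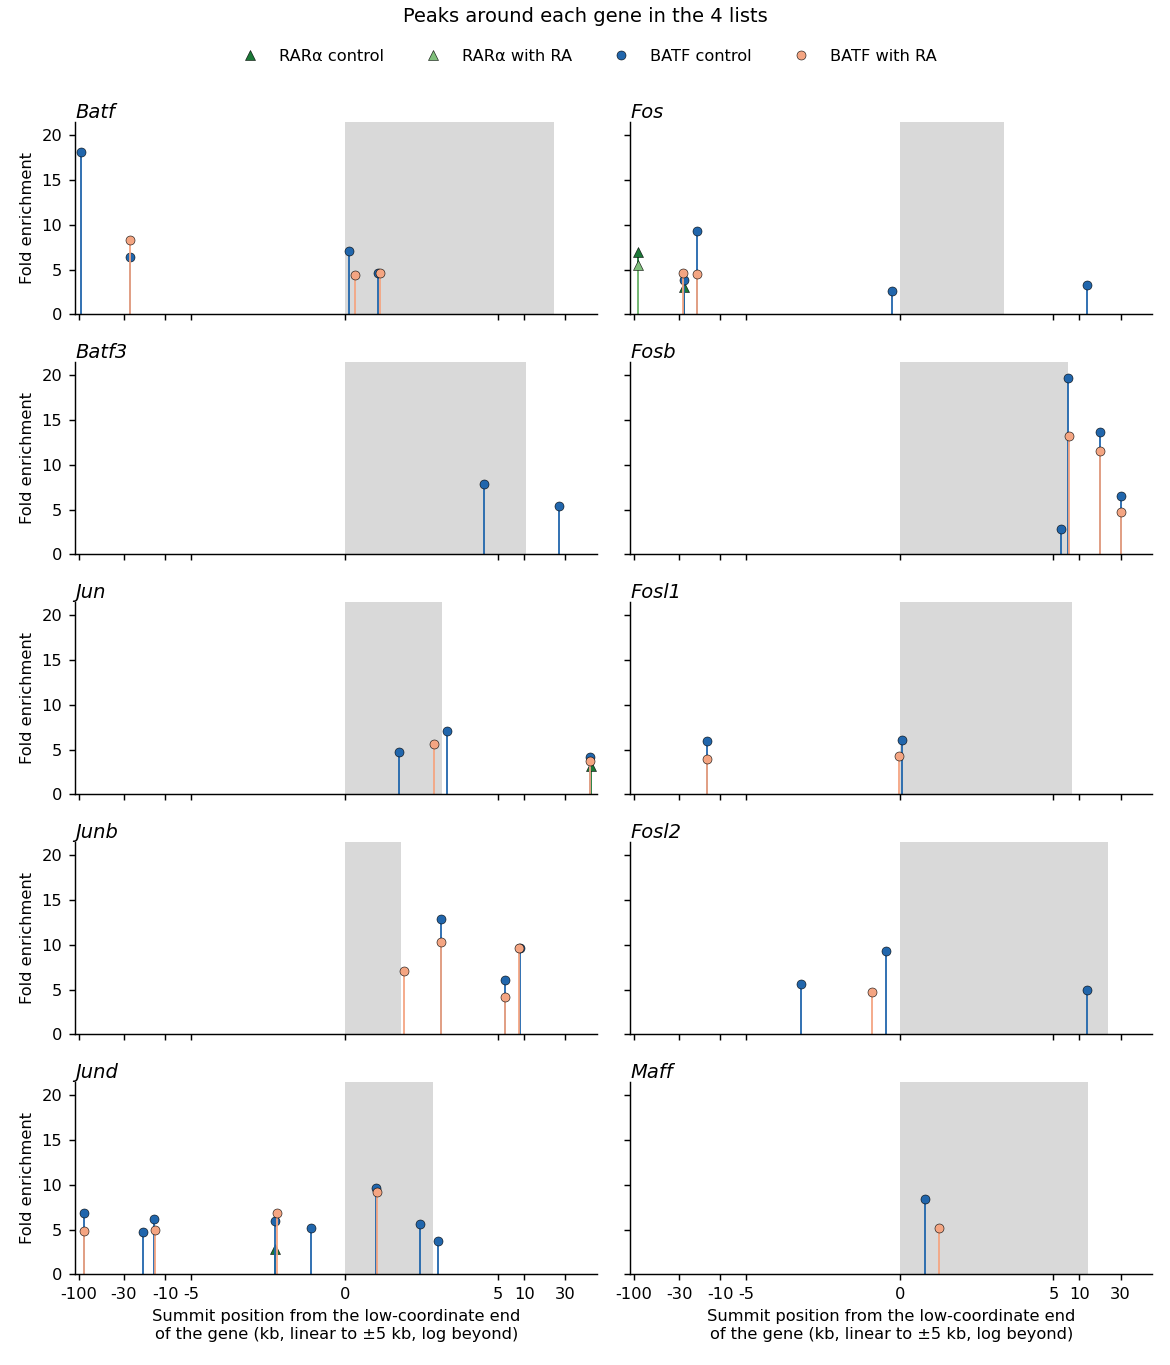
Fold enrichment (y axis) of every peak of each gene against the position of its summit from the low-coordinate end of the gene (x axis, kb, linear to 5 kb on either side and logarithmic beyond), with the gene body in grey, circles for BATF and triangles for RARα. The Batf panel shows a lone control peak of fold 18.2 at the far left with no peak with RA beside it, and the Fosb panel shows control peaks of 19.7 and 13.7 that each have a partner with RA.

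Batf itself (chr12:85686720-85709087, mm10) was named for 4 BATF control peaks and 3 with RA. Its strongest control peak, chr12:85593079-85593552, was intergenic, 93168 bp from the low-coordinate end of Batf and within an LTR element annotated as MLT1K. The peak also named Jdp2, the gene for a repressive JUN dimerization protein, which was the nearest protein-coding gene at 5104 bp. It held 70 fragments at the summit (exact Poisson 95% interval 54.6 to 88.4) over an IgG level of 2.86, which is low for the list (percentile 7.17), and had a −log10 p of 69.3. No BATF peak with RA lay within 5 kb of it, and the nearest was 31083 bp away.

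The absence of a partner for this Batf peak was set against all peaks of its strength, a comparison chosen after its values were seen. Scaled to the depth of the RA pool, the peak would have held 49.7 fragments with a −log10 p of 49.7, whereas 11 fragments at that IgG level were enough to pass the cutoff. Of all 15812 BATF control peaks, 628 were at least this strong at the RA depth, and 1 of them (0.159%) lacked a BATF peak with RA within 5 kb, namely this peak. The files hold called peaks only, so the fragment count with RA at this place is not known beyond its lying under the cutoff. Whether the peak is present in both pooled control files was not tested, since the files were merged before calling.

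The other peaks of Batf were found in both conditions. At chr12:85660824-85661464, an intergenic site 25256 bp from Batf and 20946 bp from Jdp2, there were 57 fragments in control cells and 43 with RA. The fold was 6.37 in control cells and 8.25 with RA, the largest difference upward among overlapping pairs of the 10 genes (0.37 on the log2 scale), while the depth-scaled counts (fragments per 1000000 in the pool) were 2.47 and 2.62. The IgG level under the control peak was 8, and under its partner it was 4.33. The caller scaled the same IgG file down for the BATF list with RA but not for the BATF control list. These levels are thus on different scales, and the list medians were 4.56 in control cells and 3.00 with RA. At the annotated start of Batf, chr12:85686262-85687290, the fold was 7.03 in control cells and 4.38 with RA. In the first intron, chr12:85687671-85688034, it was 4.61 and 4.63.

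Batf3, the gene for a BATF paralog best known from cross-presenting dendritic cells, had 2 BATF control peaks and none with RA. The stronger one, chr1:191102811-191103105 in the second intron, held 30 fragments at a fold of 7.90 and a −log10 p of 19.9. The weaker one, chr1:191123790-191124132, lay 14847 bp from the gene, named 8 genes and held 20 fragments at a fold of 5.37. Scaled to the depth of the RA pool, without counting scatter, their −log10 p became 15.0 and 8.25, both above the cutoff of 5. The nearest BATF peaks with RA were 39076 and 60055 bp away.

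Among the JUN genes, whose products are the obligate partners of BATF, the strongest BATF peak was at Junb (chr8:84976909-84978748). This control peak, chr8:84974622-84980585, covered the whole gene and reached into the neighboring Prdx2, and its length of 5964 bp placed it at the 99.95 percentile of the list, where the median length was 609 bp. It held 64 fragments at a fold of 12.8. In cells with RA the same stretch held 2 peaks, chr8:84976122-84978952 over the gene (33 fragments, fold 7.04) and chr8:84979592-84980498 beside it (39 fragments, fold 10.3). The summit of the latter was at position 84980033, next to the control summit at 84980036, so the 12.8 in control cells is best set beside 10.3 and not beside the 7.04 that pairing by midpoints gives. Another pair, 6218 bp from Junb, had a fold of 9.60 in both conditions, with 67 and 39 fragments, although this peak named 23 genes and lay nearer to Hook2. The third, 3932 bp away, had a fold of 6.03 and 4.12.

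Jund had the most BATF peaks of the 10 genes, spread over 85741 bp on its low-coordinate side and over the gene. Within 10 kb of Jund lay 5 of its 8 control peaks. The one 85741 bp away named 10 genes and lay nearer to Ssbp4. Those 17997 and 13151 bp away named 16 genes each and lay nearer to Lsm4. The strongest Jund peak, chr8:70698137-70699502 in the gene body, held 67 fragments at a fold of 9.60 in control cells and 48 at 9.19 with RA. The depth-scaled counts were 2.90 and 2.92, a ratio of 1.01 (exact 95% interval 0.681 to 1.48). Of the 8 control peaks of Jund, 4 were overlapped by a peak with RA and the other 4 had one within 5 kb at a neighboring site. The control folds of these other 4 were 4.69, 5.22, 5.64 and 3.71. Those at 5.22, 5.64 and 3.71 lay 894 bp from the gene, in it and 92 bp from it. The peak with RA nearest to the first of these was another promoter peak, chr8:70695413-70695689 with a fold of 6.80, and nearest to the other 2 was the main peak.

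Jun, the founding member of the family, had weaker BATF peaks. The peak chr4:95051390-95053361 at the high-coordinate end of the gene held 32 fragments at a fold of 7.09 in control cells and 21 at 5.67 with RA. Its summit was at 95052356 in control cells and at 95051949 with RA. A second control peak inside the gene, chr4:95050706-95051093 with a fold of 4.74, had no overlapping peak with RA. The third lay 54814 bp from Jun in intergenic DNA and had a fold of 4.12 and 3.75.

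Among the FOS genes, which encode dimerization partners of JUN that compete with BATF for it, Fosb stood out (chr7:19302696-19310118). Its peak chr7:19309468-19310466, classed as promoter and at the high-coordinate end of the gene, was the strongest of all 61 peaks, with 81 fragments and a fold of 19.7 in control cells. With RA the peak held 43 fragments at a fold of 13.2. The ratio of depth-scaled counts was 0.747 with an exact 95% interval of 0.504 to 1.09. A further pair at chr7:19319871-19320398, 9753 bp from Fosb, held 82 fragments at a fold of 13.7 in control cells and 52 at 11.5 with RA, a ratio of 0.892 (0.618 to 1.28). A pair 22570 bp away had a fold of 6.48 and 4.75 and lay nearer to Ercc1. The peaks of both these distant pairs named 14 genes each. The remaining control peak, chr7:19308251-19309151 within the gene, had a fold of 2.80 over an IgG level of 11.0 (percentile 97.3) and no overlapping peak with RA.

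Fos (chr12:85473890-85477274) had its strongest BATF peak away from the gene, at chr12:85455218-85455716, 18174 bp on the low-coordinate side. It held 47 fragments at a fold of 9.34 in control cells and 20 fragments at a fold of 4.57 with RA, the largest difference downward among the overlapping pairs of the 10 genes (−1.03 on the log2 scale). The ratio of depth-scaled counts was 0.599, with an exact interval of 0.336 to 1.03. At the start of Fos, chr12:85473384-85474127, there were 34 fragments in control cells at a fold of 2.66, and no BATF peak with RA within 17657 bp. The IgG level under this promoter peak was 12.0 (percentile 98.4 of the list), its −log10 p was 6.81, and at the RA depth this became 5.36, just past the cutoff of 5. A peak 8768 bp from Fos, with a fold of 3.33 over an IgG level of 7.00, also had no peak with RA. The part of the raised IgG level in these 2 calls was not tested.

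Fosl2, which encodes FRA2, had 3 BATF peaks in control cells and 1 with RA. Its promoter peak chr5:32134982-32136829 held 56 fragments at a fold of 9.33 in control cells and 34 at 4.68 with RA. The difference in fold was −0.99 on the log2 scale, while the depth-scaled counts, 2.42 and 2.07, had a ratio of 0.854 (0.541 to 1.33). The IgG level was 5.04 and 6.48, each on the scale of its own list. The summits were at 32136011 in control cells and 32135556 with RA, so the ratio compares different positions. An intron peak, chr5:32148561-32148828 with 24 fragments at a fold of 4.94, had no BATF peak with RA within 12347 bp. The third, which had a fold of 5.61 and lay 2685 bp away, had the promoter peak as its neighbor. Fosl1, which encodes FRA1, kept both of its peaks, with a fold of 6.05 and 4.33 at the promoter (chr19:5447602-5449043) and 5.97 and 4.00 at a site 13952 bp away that named 18 genes.

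Maff encodes a small MAF protein, a bZIP factor without a transactivation domain. Its single BATF peak, chr15:79346931-79348343 over the promoter, held 42 fragments at a fold of 8.37 in control cells and 30 at 5.13 with RA. The depth-scaled counts were 1.82 and 1.83, a ratio of 1.005 (0.607 to 1.64). The summits were at 79347427 in control cells and 79347899 with RA, so this ratio compares different positions. The IgG level was 4.08 under the control peak and 5.04 under the peak with RA, each on the scale of its own list.

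Across the family, peaks with RA were a subset of control sites. All 22 BATF peaks with RA overlapped a control peak (100%, Wilson interval 85.1 to 100), as did 93.6% of all BATF peaks with RA. In the other direction 28 of the 34 control peaks had a peak with RA within 5 kb (82.4%, 66.5 to 91.7), against 69.9% of all BATF control peaks. Direct overlap was found for 21 of the 34 (61.8%, 45.0 to 76.1), against 54.4% of all. Both intervals hold the value of the whole list. The 7 control peaks with a peak nearby but no overlap (4 at Jund and 1 each at Jun, Fosb and Fosl2) had been matched to the peak of a neighboring site. The 6 without a peak within 5 kb were at Batf (1), Batf3 (2), Fos (2) and Fosl2 (1).

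Depth was examined by scaling each control peak to the RA pool. On the scaled values all 34 control peaks of the family passed the cutoff, as did 93.6% of all BATF control peaks. A scaled count is an expected value without counting scatter. Whether a single weaker peak would have been called at that depth was therefore not tested. Among those that passed on the scaled values, 28 of 34 had a peak with RA within 5 kb, against 71.6% of all. The share of all BATF control peaks without a peak with RA was lower at greater strength. It was 46.5% at a scaled −log10 p of 5 to 10, 22.4% at 10 to 20, 5.42% at 20 to 30, 1.84% at 30 to 40 and 0.438% at 40 or more. Of the 6 family peaks without a partner, 4 were in the weakest of these ranges, where 12 family peaks lay, and the Batf3 intron peak was in the next, with 13. The Batf peak in the LTR was the exception, in the strongest range.

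**Figure D3:**
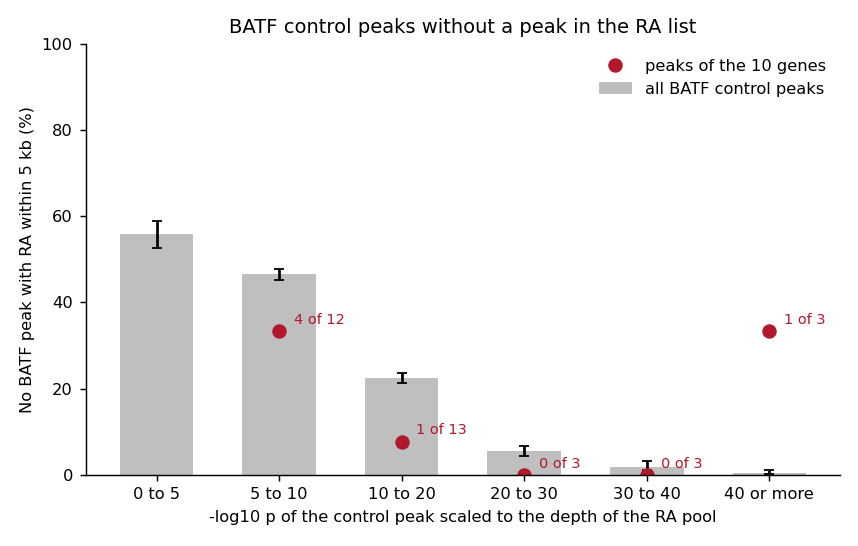
Percentage of BATF control peaks without a BATF peak with RA within 5 kb (y axis) by their −log10 p scaled to the depth of the RA pool (x axis), as grey bars with Wilson 95% intervals for all peaks and red points for peaks of the 10 genes. The bars fall from 55.8% to 0.438%, and the point at 40 or more is 1 of 3 peaks, the Batf peak in the LTR.

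At overlapping pairs, 16 of 21 had a lower fold in cells with RA (76.2%, 54.9 to 89.4), against 75.5% of all overlapping pairs. The median fold was 6.80 in control cells and 4.86 with RA, and the median difference was −0.45 on the log2 scale (range −1.03 to 0.37), against −0.27 over all 8605 overlapping pairs. With partners chosen by the nearest summit, which sets the Junb peak beside 10.3, the medians were −0.32 and −0.27, so most of the gap rests on that Junb pairing. The pairs with a higher fold were 2 at Batf and 1 each at Junb, Jund and Fos. With pairs within 5 kb, 17 of 28 had a lower fold (60.7%, 42.4 to 76.4), against 66.9% of all such pairs, with a median of −0.25 against −0.20. This wider pairing sets flanking control peaks beside the main peak of another site, such as the Fosb peak of fold 2.80 beside the one of 13.2. In these 28 pairs the ratio to IgG without the added 1 was lower with RA in 57.1%, with a median log2 difference of −0.20. The added 1 lowers a fold above 1 more at lower depth, and its part in these differences was not tested.

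**Figure D4:**
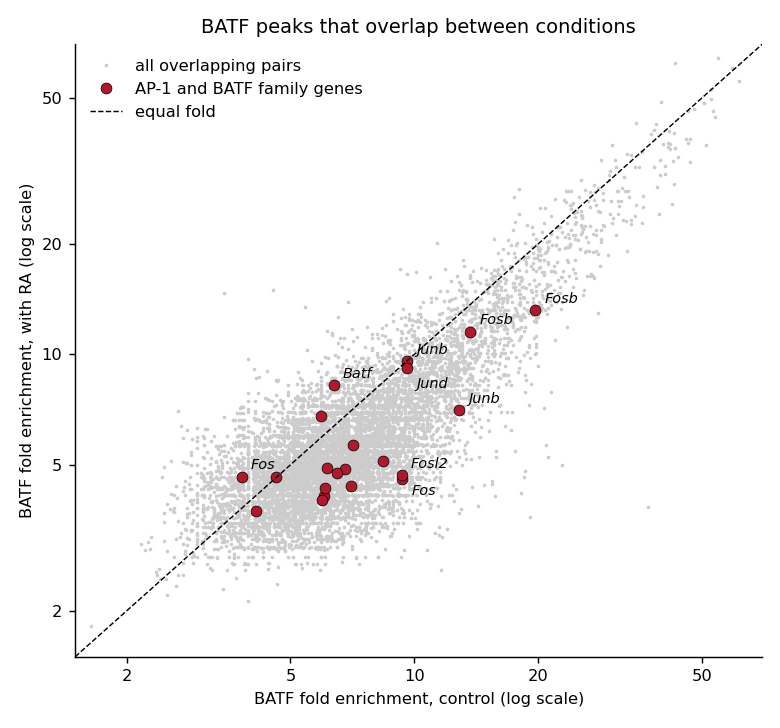
BATF fold enrichment with RA (y axis, log scale) against control (x axis, log scale) for overlapping pairs, with all 8605 pairs in grey, the 21 pairs of the 10 genes in red and equal fold as a dashed line. The red points lie within the grey cloud, 16 of 21 below the line, with Batf at 6.37 and 8.25 above it and Fos at 9.34 and 4.57 among the farthest below.

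On the depth-scaled count, the signal with RA was lower in 17 of 21 overlapping pairs, against 77.1% of all. The ratio of RA to control had a median of 0.834 at the family and 0.838 over all overlapping pairs. The ratios ran from 0.599 at the distal Fos peak to 1.08 at the intron of Batf. Each ratio sets the summit of a control peak beside that of its partner, and these summits can lie at different positions. All 21 exact 95% intervals held 1, as did those of 91.0% of all overlapping pairs. At these counts (12 to 82 fragments per summit) a change at a single peak was mostly not detectable.

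**Figure D5:**
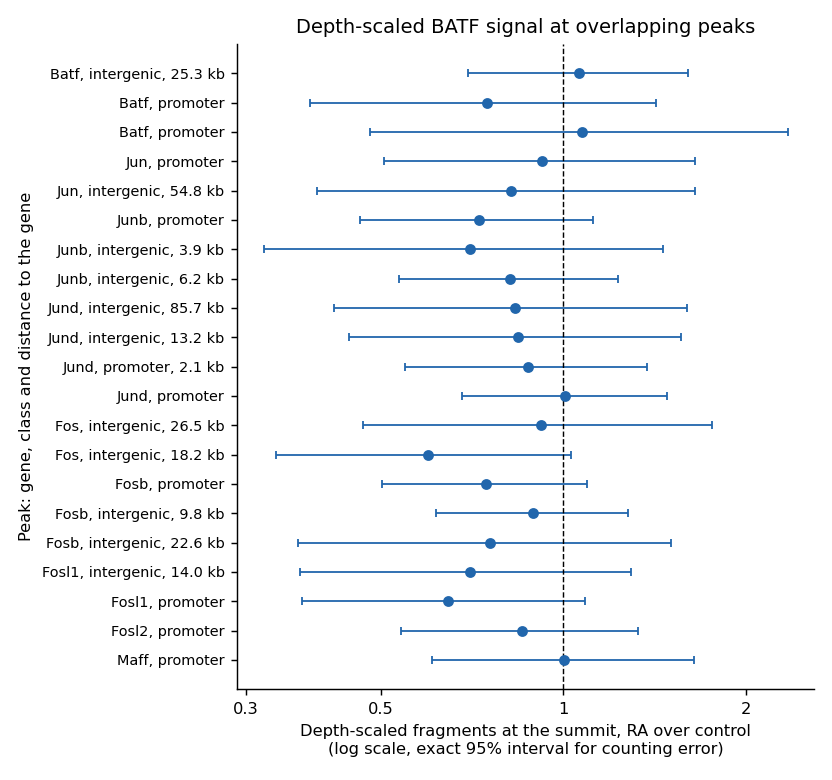
Ratio of BATF depth-scaled counts (fragments per 1000000 in the pool) at the summit, RA over control (x axis, log scale), for the 21 overlapping pairs (y axis, by gene, class and distance to the gene), with exact 95% intervals for counting error. Every interval crosses 1, and the Fos peak at 0.599 (0.336 to 1.03) comes closest to excluding it.

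RARα peaks were then set beside the BATF peaks of the same genes. Of the 4 RARα control peaks, 3 directly overlapped a BATF control peak, against 53.4% of all RARα control peaks. At Jun, the RARα peak chr4:95107582-95107874 was intergenic and 55360 bp from the gene, the nearest protein-coding gene. It held 24 fragments at a fold of 3.14 over an IgG level of 6.95 (percentile 93.9 of the RARα control list) and overlapped the weak BATF control peak of fold 4.12. At Jund, the RARα peak chr8:70695334-70695603 was classed as promoter, 2136 bp from the gene, and held 24 fragments at a fold of 2.80 over an IgG level of 7.94 (percentile 94.7). It overlapped BATF peaks of both conditions, with 53 fragments and a fold of 5.93 in control cells and 33 and 6.80 with RA. Neither RARα peak had a RARα peak with RA within 3367811 bp.

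Fos had the other RARα peaks. The one at chr12:85447094-85447402, 26488 bp from the gene, held 14 fragments at a fold of 3.02, and its q-value did not pass 0.05, as that of the other 3 did. It overlapped the BATF peak pair with a fold of 3.81 in control cells and 4.64 with RA. The other, chr12:85382850-85383411, was the strongest RARα peak of the family, with 27 fragments at a fold of 6.93 over an IgG level of 3.04, and its fold was at the 96.2 percentile of the list. It lay 90479 bp from Fos and named 4 genes, and Tmed10 was nearer at 8133 bp. This was the RARα site found in both conditions: with RA the peak chr12:85382849-85383387 held 21 fragments at a fold of 5.56. The ratio of depth-scaled counts was 0.784 (exact interval 0.421 to 1.44). Thus 1 of 4 RARα control peaks had a RARα peak with RA within 5 kb, against 10.2% of all. No BATF peak overlapped this site, and the nearest lay 7580 bp away in control cells.

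The RARα peaks at Jun, Jund and the nearer Fos site therefore coincided with BATF peaks of low to middling fold. None coincided with the strongest BATF peak of its gene. The IgG levels under these BATF control peaks were 5, 8 and 6 (percentiles 57.75, 88.9 and 76.7 of the list). The Jund one held 53 fragments, where the list median was 31. The part of the IgG level in these folds was not tested. The BATF sites of higher fold at Fosb, Junb, Batf, Fosl2 and Maff had no RARα peak named for the same gene.

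Of 16 other bZIP genes related to AP-1, 11 had a BATF control peak (38 peaks) and 11 had one with RA (24 peaks), with a median strongest fold of 8.44 and 7.52. Over all protein-coding genes 46.2% and 36.4% had such a peak, and the median strongest fold over all genes with a peak was 6.72 and 5.96. The count includes, through Jdp2, the peak of fold 18.2 already given for Batf. Bach2, which encodes a repressor that competes with AP-1 at its sites and restrains effector differentiation, had 9 control peaks and 3 with RA, with a strongest fold of 27.7 and 21.8, above any of the 10 genes. Bach1 had 5 and 4 peaks with a strongest fold of 12.9 and 10.3, and Nfil3 had 5 and 4 with 12.5 and 14.2. Nfe2l2, the gene for the stress response factor NRF2, had 5 and 3. RARα control peaks were named for Bach2 (fold 3.21) and Nfe2 (3.35), and a RARα peak with RA for Atf3 (3.54).

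Of 9 MAP kinase genes, whose products phosphorylate and induce AP-1 proteins, 7 had a BATF control peak (13 peaks) and 6 had one with RA (8 peaks), beside the same 46.2% and 36.4% of all protein-coding genes. Mapk14, the gene for p38α, had 4 and 2 peaks with a strongest fold of 22.1 and 19.9, and a RARα control peak of fold 2.62. Mapk9 and Map2k1 had no peak, and Map2k7 had 1 in control cells and 0 with RA.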

How the data were processed

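ChIP-seq for RARα and BATF was measured in mouse CD8 T cells with and without RA. Per the methods and the file headers, the authors aligned paired-end reads with Bowtie2, annotated peaks with genes and a class, and called peaks with MACS 2.2.7.1 on mm10. The p-value cutoff was 0.001 (RARα) or 1e-05 (BATF), on 2 pooled ChIP files per condition against 1 IgG file. The deposited pileup is a signal, the fragments at the summit, which the caller had scaled down in the BATF control list and which was converted back to whole fragments. The deposited fold enrichment is a ratio, from which the IgG level at each peak was recovered on the scale the caller used for that list. The deposited p-values and q-values are on the −log10 scale.

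Peaks were taken by the gene names in the authors' annotation, of which at least 94.7% matched a RefSeq table (GRCm38.p6), the source of gene positions. The table gives no strand, so sides of a gene are given by coordinate. Distances are gaps between peak and gene. Peaks were matched within 5 kb, after the methods, and paired by nearest midpoint. Control peaks were scaled to the depth of the RA pool and their p recomputed with the Poisson formula of the caller, which gave the deposited p of at least 99.8% of peaks within 0.05. Intervals are Wilson for shares, exact Poisson for counts and exact binomial for ratios, and cover counting error only. The gene members and the lists of bZIP and MAP kinase genes were chosen with earlier results of these data known. Named by rule were all 10 genes, every RARα peak, and for each gene the BATF control peak of highest fold with the nearest peak with RA. Of the other genes, those with the most BATF control peaks or a RARα peak were named, beside genes with none. Other peaks were given where no partner was found or to complete a gene. The matching and interval steps were tested on simulated data. Sequences and motifs were not used here. Alternatives were other thresholds, distances, measures, pairings and gene assignments. The software was Python 3.11.15 with scipy 1.17.1, pandas 2.3.3, numpy 2.4.6 and, for plots, matplotlib 3.10.9.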

Additional observations from a re-analysis of the deposited data

How the results depend on the processing

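With 1 list per condition, precision is limited by fragments per summit, and none of the alternatives adds replicate error. Of 50 alternative values for 11 results, 35 stayed within the range set for them and 15 moved. A reversal of direction could be scored only for the median log2 ratio of fold, where 0 were found. Counts and shares could only stay or move. With only peaks of fold 5 or more, the counts fell from 4 to 1 for RARα control and from 22 to 10 for BATF with RA. With only peaks within 10 kb of the gene, they became 1 for RARα control, 0 for RARα with RA and 14 for BATF with RA. The promoter share of BATF control peaks went from 44.1% to 65.2% under this limit, which kept every promoter peak. The share over all BATF control peaks under the same limit was not computed. With only peaks that name no other gene, the counts became 2, 0, 19 (BATF control) and 12 (BATF with RA). Counting all peaks within 100 kb whatever the annotation named gave 7 RARα control, 86 BATF control and 60 BATF peaks with RA. The share of control peaks with a peak with RA nearby was 61.8% by direct overlap, against 54.4% of all BATF control peaks. It was 50.0% when both lists were limited to a fold of 5, where the share over all peaks was not computed. The scaling to the RA depth and the pairings by nearest summit were added after seeing the data. No paired analysis was possible because the 2 ChIP files of a condition were merged into a single list.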

Other observations

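The annotation left out many BATF peaks that lie close to these genes. Within 100 kb of the 10 gene bodies there were 86 BATF control peaks, of which 52 did not name the family member, 48 of them promoter peaks of other genes. Fosl1 had 12 such peaks in control cells and 12 with RA, Junb 11 and 7, Jund 10 and 6, and Fosb 9 and 9. Batf had 1 in each condition and Fosl2 had 0. On chromosome 12, Fos and Batf lie 209446 bp apart with Jdp2 between them, and the BATF control peak of fold 18.2 assigned to Batf was the strongest peak of Jdp2 as well.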
